A study of Mus musculus with 8 samples.

Results

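The sterol and fatty acid synthesis genes described here are 32 genes of the SREBP pathway, which build cholesterol and unsaturated fatty acids or control their own production. They were named as members of the pathway, with earlier results of these data known. A gene was followed on the probe set that the platform annotation assigns to it alone, and on the brightest such probe set (highest mean of 8 arrays) where it had several. Of the 32 genes, 31 had a probe set of their own, with 72 probe sets between them out of 45014 tested. *Acat2* had none and was not analysed here.

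The arrays profiled bone marrow-derived macrophages (BMDM), which are macrophages grown in culture from mouse marrow, of C57Bl/6 wild-type (WT) mice and of mice lacking the microRNA miR-155 (*miR-155*-/-). Marrow of 2 WT and 2 *miR-155*-/- donors had been kept in liquid nitrogen, thawed, and differentiated for 7 days in 15% conditioned medium of L929 cells, a fibroblast line that secretes macrophage growth factor. Each donor's cells gave 1 array after 24 h with LPS, the bacterial lipopolysaccharide, at 100 ng/ml, and 1 array after IL-10, an anti-inflammatory cytokine, at 20 ng/ml was given 5 min before the same LPS. The 4 groups of 2 arrays are WT(LPS), WT(LPS + IL-10), *miR-155*-/-(LPS) and *miR-155*-/-(LPS + IL-10), and every group received LPS. Where a group has 2 values below, donor 1 comes first. The labels give no unstimulated group, so no value below is a response to LPS itself.

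By the labels the WT donors were female and the *miR-155*-/- donors male, so genotype and sex cannot be told apart in any comparison between them. With 2 arrays a group the number of arrays limits the precision of each value. All values are log2 values after robust multi-array averaging (RMA), a summary of the probes of a set in which a difference of 1 is a 2-fold change. *Mir155hg*, the host transcript of miR-155, read 2.73 and 4.02 in WT(LPS) and between 1.70 and 2.31 on the other 6 arrays, and no source used here says whether its probes lie within the deletion. The 8 macrophage markers read 8.03 or more everywhere, with array medians of 12.59 to 12.82. *Mertk* read 9.06 and 9.37 (WT) and 8.52 and 8.03 (knockout) under LPS. With IL-10 added it read 9.17 and 9.52 (WT) and 8.39 and 8.53 (knockout). *Itgam* read 9.19 and 8.71 (WT) and 8.45 and 8.92 (knockout) under LPS. It was higher with IL-10 in all 4 donors, at 9.36 and 9.46 (WT) and 9.28 and 9.49 (knockout). On both arrays of WT donor 1, 11 of 12 fibroblast and stromal markers stood above every other array. The medians of the 12 were 9.26 and 9.29 there against 3.14 to 4.80 elsewhere. Under LPS and then with IL-10 added, they were 4.80 and 4.51 in knockout donor 2 and 4.28 and 3.71 in WT donor 2. In knockout donor 1 they were 3.14 and 3.36, so the stromal signal also differed among the other donors. The exception, *Lum*, went the other way, at 3.21 or less on the WT arrays and 3.76 or more on the knockout arrays. It was the only 1 of the 12 called higher in *miR-155*-/-(LPS). The 5 adipocyte markers with a probe set, from other cells rich in lipid synthesis enzymes, lay between 1.89 and 4.43 on all arrays, and array medians of the 5 endothelial markers lay between 2.04 and 3.15. Of the endothelial markers, *Kdr* was brighter, at 5.84 and 6.02 (WT) and 6.80 and 6.78 (knockout) under LPS. With IL-10 added it read 5.91 and 6.21 (WT) and 6.22 and 5.51 (knockout). Of 7 neutrophil markers with a probe set, *Elane*, *Mpo*, *Ltf* and *Ngp* read 3.32 or less everywhere and the array medians lay between 2.54 and 3.32. *Camp* read 5.78 and 5.07 (WT) and 6.30 and 5.82 (knockout) under LPS. With IL-10 added it was lower in all 4 donors, at 5.51 and 4.99 (WT) and 5.60 and 5.18 (knockout). *S100a8*, which macrophages also express, moved in the order described below for many synthesis genes, with a mean of 12.08 (WT) and 10.91 (knockout) under LPS, against 12.98 (WT) and 12.50 (knockout) with IL-10 added (SD up to 0.13, n = 2 each). *S100a8* was the only 1 of these 7 markers called higher with IL-10, on average and in the knockout. With *S100a9* it was 1 of 2 called lower in *miR-155*-/-(LPS). *S100a9* did not share the order of *S100a8*. With IL-10 added it was higher in both WT donors and lower in both knockout donors. Its mean was 7.11 (WT) and 3.98 (knockout) under LPS, against 7.82 (WT) and 3.37 (knockout) with IL-10 added (SD up to 0.67). Under LPS + IL-10, 1 of the 7 was called lower in the knockout. The relation of *S100a8* to the synthesis genes was not tested. A bulk array cannot tell fewer cells of a type from less RNA per cell.

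SREBPs are transcription factors made as membrane-bound precursors in the endoplasmic reticulum. When sterols fall, the escort SCAP carries them to the Golgi, where proteases free the active part, and when sterols are plentiful INSIG proteins hold SCAP and the precursor back. The product of *Srebf2* mainly drives cholesterol synthesis genes and that of *Srebf1* mainly fatty acid synthesis genes, and in macrophages type I interferons and oxysterols are known to restrain the pathway. The active factors bind sterol regulatory elements in promoters, usually beside sites for the helper factors NF-Y, which reads CCAAT, and Sp1, which reads GC boxes.

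The 5 promoter stretches printed here were chosen because their genes carry the differences described below or, for *Hmgcs1*, because it held the only sterol element found. Each is the 150 bases before the start site in the direction of the gene (RefSeq, GRCm38.p6), with matches to the sterol element TCACNCCAC, the CCAAT box CCAAT and the GC box GGGCGG on either strand in capitals. The stretches lie at chr13:119690201-119690350 on the plus strand for *Hmgcs1*, chr8:122443423-122443572 on the minus strand for *Mvd*, chr19:6067851-6068000 on the minus strand for *Tm7sf2*, chr15:82147119-82147268 on the plus strand for *Srebf2* and chr3:129532236-129532385 on the plus strand for *Elovl6*.
Hmgcs1: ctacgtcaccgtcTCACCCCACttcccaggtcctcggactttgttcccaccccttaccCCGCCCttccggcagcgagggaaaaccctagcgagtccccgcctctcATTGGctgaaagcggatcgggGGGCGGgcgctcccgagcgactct
Mvd: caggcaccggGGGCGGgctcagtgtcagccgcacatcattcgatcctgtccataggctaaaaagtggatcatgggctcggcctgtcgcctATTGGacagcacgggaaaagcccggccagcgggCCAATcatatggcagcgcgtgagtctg
Tm7sf2: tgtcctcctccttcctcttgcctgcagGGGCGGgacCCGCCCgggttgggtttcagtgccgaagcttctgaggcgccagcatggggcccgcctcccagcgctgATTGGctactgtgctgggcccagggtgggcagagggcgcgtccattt
Srebf2: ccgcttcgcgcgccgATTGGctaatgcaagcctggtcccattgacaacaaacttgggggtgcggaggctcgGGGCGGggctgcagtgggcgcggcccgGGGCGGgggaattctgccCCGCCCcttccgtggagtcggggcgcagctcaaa
Elovl6: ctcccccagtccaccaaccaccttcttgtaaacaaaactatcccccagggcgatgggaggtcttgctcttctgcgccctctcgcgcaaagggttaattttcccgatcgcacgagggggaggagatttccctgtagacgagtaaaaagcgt

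Promoter entries were found for 25 of the 32 genes. Within the 250 bases before a start site, 19 of the 25 genes (76.0%) held a CCAAT box on either strand, against 37.5% of all 27025 genes in the table and 40.2% of the 7024 genes whose brightest probe set averaged at least 6. A GC box was held by 21 of the 25 (84.0%), against 35.4% of all genes and 65.9% of the brighter ones. The sterol element matched in 1 of the 25, *Hmgcs1* (4.0%, against 1.22% of all genes), and TCACGTGA, an E-box form that SREBPs also bind, in 0 (against 0.907%). The *Mvd*, *Tm7sf2* and *Srebf2* stretches above each hold both a CCAAT box and a GC box, and the *Elovl6* stretch holds none of these letters. A match is a description of the sequence and was not tied to binding.

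The microRNA missing from the knockout donors, miR-155-5p (chr16:84714143-84714165, plus strand, GRCm38.p6), is shown because it defines the genotype, with its seed, bases 2 to 8, in capitals.
miR-155-5p: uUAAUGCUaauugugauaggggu

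The first question is how the pathway responded when IL-10 was added to LPS. Taking all 4 donors, 7 of the 31 genes were higher with IL-10 and none lower: *Mvd*, *Sqle* and *Tm7sf2* of cholesterol synthesis, the sterol carrier *Stard4*, the transcription factor gene *Srebf2*, and *Elovl6* and *Fads1* of fatty acid elongation and desaturation. Their log2 differences, averaged over both genotypes, ran from 0.41 for *Fads1* to 1.20 for *Elovl6*. A gene is called here when limma's adjusted p over all 45014 probe sets is under 0.05, and 1.16% of all probe sets were called higher in this comparison. At an unadjusted p under 0.05, 21 of the 31 were higher and none lower (8.25% of all probe sets were higher). The median of the 31 was 0.47, with 29 positive, against a median of 0.007 over all probe sets tested. Without both arrays of WT donor 1 the median was 0.48. *Mvd* at 0.48 (adjusted p = 0.0784) and *Fads1* at 0.44 (0.0775) then missed the threshold, while *Tm7sf2*, *Stard4*, *Srebf2*, *Sqle* and *Elovl6* kept their calls at 1.20, 0.78, 0.80, 0.91 and 1.25.

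The difference between the LPS + IL-10 and the LPS array of the same donor, called the IL-10 step below, was positive in all 4 donors for 23 of the 31 genes (10.6% of all probe sets). Among the 28 genes whose probe set averaged at least 6, the step was positive in all 4 donors for 21, against 14.7% of the 15434 probe sets that bright. The median step was 0.29 in WT donor 1, 0.27 in WT donor 2, 0.76 in *miR-155*-/- donor 1 and 0.44 in *miR-155*-/- donor 2. Both WT donors stepped up for 25 genes (27.1% of all probe sets) and both knockout donors also for 25 (32.7%).

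**Figure D1:**
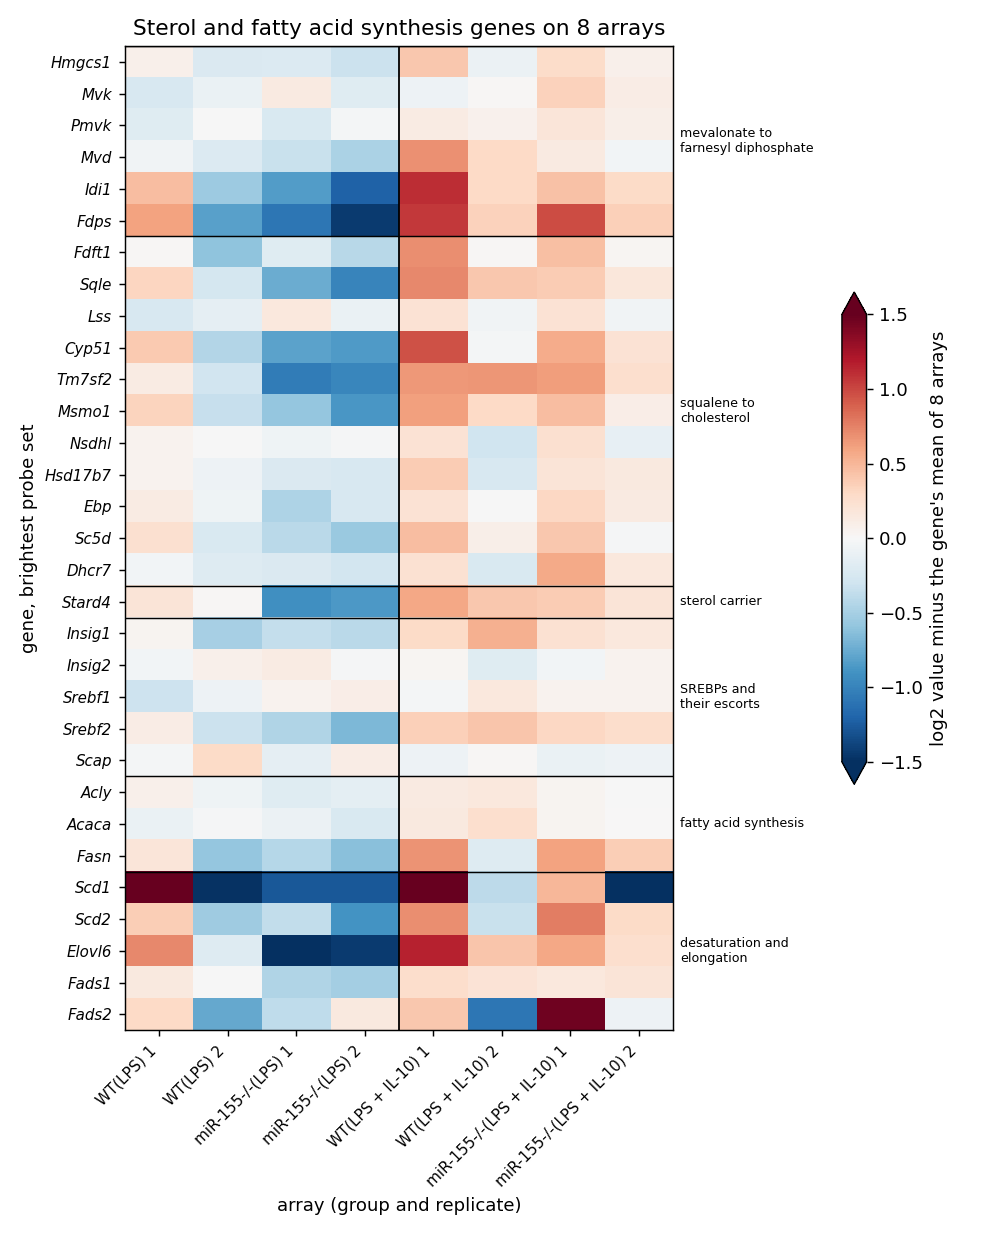
Log2 value of each of 31 genes (rows, ordered by role) on each of 8 arrays (columns) minus the gene's mean of the 8 arrays, with LPS arrays left and LPS + IL-10 arrays right of the line. Most rows are blue on the 2 *miR-155*-/-(LPS) arrays and on WT(LPS) replicate 2, and red on the LPS + IL-10 arrays. The median deviation was -0.37 and -0.42 on the 2 *miR-155*-/-(LPS) arrays, -0.21 on WT(LPS) replicate 2 and 0.11 on WT(LPS) replicate 1. *Scd1* goes beyond the ends of the colour scale at 1.5.

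In the first stage of the pathway, from acetyl units to farnesyl diphosphate, 1 of 6 genes was called and all 6 differences were positive. *Mvd*, which decarboxylates mevalonate diphosphate to the isoprene unit, read 6.79 and 6.64 (WT) and 6.52 and 6.37 (knockout) under LPS, against 7.53 and 7.14 (WT) and 6.98 and 6.80 (knockout) with IL-10 added. The LPS + IL-10 arrays lay above the LPS arrays of the same genotype without overlap in both genotypes. The averaged difference of *Mvd* was 0.54 (SE 0.10, limma, adjusted p = 0.0467), and leaving out any 1 of the 8 arrays ended the call (adjusted p up to 0.205, without WT(LPS) replicate 2).

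The largest averaged difference of all 31 genes belonged to *Fdps*, which joins isoprene units into farnesyl diphosphate and narrowly missed the threshold. It read 9.15 and 7.74 in WT against 7.47 and 7.11 in the knockout under LPS alone, and 9.61 and 8.89 against 9.53 and 8.91 under LPS + IL-10. The 2 WT(LPS) arrays differed widely and overlapped WT(LPS + IL-10), while the knockout groups were well apart. The difference was 1.37 (SE 0.27, limma, adjusted p = 0.0542).

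*Idi1*, the isomerase that supplies the second isoprene form, followed the same order. Its values were 9.87 and 8.86 in the WT donors under LPS and 10.51 and 9.70 with IL-10 added, and 8.57 and 8.19, then 9.84 and 9.69, in the knockout donors, with a difference of 1.06 (limma, adjusted p = 0.0557). A dimmer probe set of the gene passed, at 1.09 (adjusted p = 0.0479).

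*Hmgcs1*, the enzyme that makes HMG-CoA and the gene with the sterol element shown above, had a smaller difference. It read 11.92 and 11.62 (WT) and 11.63 and 11.52 (knockout) under LPS, against 12.24 and 11.76 (WT) and 12.11 and 11.92 (knockout) with IL-10 added. Each donor's step was positive, from 0.13 to 0.48, and the WT groups overlapped (0.33, limma, adjusted p = 0.218). The 3 next brightest *Hmgcs1* probe sets, with means of 9.93 to 10.28, had averaged differences of 0.44 to 0.60 and did not pass. The kinase gene *Pmvk*, at 8.39 and 8.57 in WT against 8.35 and 8.54 in the knockout under LPS alone, and 8.70 and 8.63 against 8.76 and 8.66 under LPS + IL-10, had a difference of 0.23 (limma, adjusted p = 0.265). *Mvk*, the kinase before it, read 6.34 and 6.48 in the WT donors under LPS and 6.50 and 6.59 with IL-10 added, and 6.71 and 6.39, then 6.92 and 6.69, in the knockout donors, with a difference of 0.19 (limma, adjusted p = 0.373).

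From squalene to cholesterol, 2 of 11 genes were called and all 11 averaged differences were positive. *Tm7sf2*, a reductase of the sterol ring, had the smallest adjusted p of the 31 genes. It read 6.33 and 5.92 (WT) and 5.16 and 5.24 (knockout) under LPS, against 6.86 and 6.88 (WT) and 6.84 and 6.46 (knockout) with IL-10 added. No LPS array reached any LPS + IL-10 array, in either genotype. The averaged difference was 1.10 (SE 0.12, limma, adjusted p = 0.00712), a 2.14-fold change, and it was called in all 19 alternative settings run, with an adjusted p of up to 0.0489 when 1 array was left out.

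*Sqle*, the squalene epoxidase, is a rate-controlling enzyme of sterol synthesis. It read 8.97 and 8.38 in WT against 7.89 and 7.66 in the knockout under LPS alone, and 9.37 and 9.05 against 9.03 and 8.81 under LPS + IL-10. The groups of each genotype did not overlap, and the knockout LPS arrays were the lowest of all 8. The averaged difference was 0.84 (SE 0.13, limma, adjusted p = 0.0259), and leaving out any of 7 of the 8 arrays ended the call (up to 0.102, without *miR-155*-/-(LPS + IL-10) replicate 1).

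The demethylation enzymes just after lanosterol had differences of similar size but wider spread. *Cyp51*, lanosterol demethylase, read 9.41 and 8.58 in the WT donors under LPS and 9.97 and 8.98 with IL-10 added, and 8.21 and 8.17, then 9.58 and 9.23, in the knockout donors, with a difference of 0.85 (limma, adjusted p = 0.104). *Msmo1*, a methylsterol oxidase, read 10.04 and 9.37 (WT) and 9.13 and 8.84 (knockout) under LPS, against 10.33 and 10.01 (WT) and 10.17 and 9.81 (knockout) with IL-10 added, with a difference of 0.74 (limma, adjusted p = 0.0588). For both genes the WT groups overlapped and the knockout groups did not.

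*Fdft1*, squalene synthase, had nearly the same step in both genotypes. It read 8.13 and 7.51 in WT against 7.94 and 7.70 in the knockout under LPS alone, and 8.81 and 8.13 against 8.58 and 8.15 under LPS + IL-10. Its difference was 0.60 (limma, adjusted p = 0.143).

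The late enzymes *Sc5d*, *Dhcr7* and *Ebp*, which act on the sterol double bonds, had averaged differences of 0.47, 0.37 and 0.32 (limma, adjusted p = 0.142, 0.208 and 0.170). *Ebp* read 9.47 and 9.28 in the WT donors under LPS and 9.55 and 9.33 with IL-10 added, and 8.88 and 9.10, then 9.65 and 9.47, in the knockout donors. *Sc5d* read 8.90 and 8.43 (WT) and 8.25 and 8.10 (knockout) under LPS, against 9.11 and 8.75 (WT) and 9.06 and 8.64 (knockout) with IL-10 added. *Dhcr7* read 9.33 and 9.18 in WT against 9.16 and 9.10 in the knockout under LPS alone, and 9.61 and 9.15 against 9.95 and 9.54 under LPS + IL-10. For these 3 enzymes the knockout groups did not overlap, and the WT groups did.

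The other 3 genes of this stage stayed closer to their own means. *Hsd17b7*, a sterol ketone reductase, had an averaged difference of 0.24, with IL-10 differences of 0.09 in WT and 0.40 in the knockout. Its next brightest probe set (mean 7.51) read -0.15 in WT and 0.90 in the knockout (limma, adjusted p = 0.92 and 0.223). *Lss*, lanosterol synthase, read 7.26 and 7.37 in the WT donors under LPS and 7.72 and 7.45 with IL-10 added, and 7.67 and 7.41, then 7.73 and 7.45, in the knockout donors, a difference of 0.16 (limma, adjusted p = 0.505). Only the WT arrays of *Lss* lay apart by treatment. *Nsdhl*, which works beside *Hsd17b7*, read 8.34 and 8.28 (WT) and 8.22 and 8.26 (knockout) under LPS, against 8.50 and 7.99 (WT) and 8.52 and 8.17 (knockout) with IL-10 added. Replicate 1 stepped up and replicate 2 down in both genotypes, and the difference of *Nsdhl* was 0.02 (limma, adjusted p = 0.971).

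*Stard4*, which carries cholesterol between membranes, rose with IL-10. It read 9.43 and 9.26 in WT against 8.32 and 8.38 in the knockout under LPS alone, and 9.82 and 9.64 against 9.61 and 9.43 under LPS + IL-10. The 2 donors of each genotype lay within 0.18 of each other in every group, and no groups of a genotype overlapped. The averaged difference was 0.78 (SE 0.09, limma, adjusted p = 0.00752), a 1.72-fold change, and the call ended only without WT(LPS) replicate 2 (adjusted p = 0.0549).

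Of the 5 genes for SREBPs and their escorts, only *Srebf2* was called. *Srebf2* read 9.14 and 8.70 in the WT donors under LPS and 9.38 and 9.45 with IL-10 added, and 8.57 and 8.35, then 9.34 and 9.29, in the knockout donors. The 4 LPS + IL-10 arrays lay within 0.16 of each other and above all 4 LPS arrays. Its averaged difference was 0.67 (SE 0.11, limma, adjusted p = 0.0296), and leaving out any of 7 arrays ended the call (up to 0.115, without *miR-155*-/-(LPS) replicate 2).

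*Insig1*, the sterol-responsive retention factor, read 11.29 and 10.75 (WT) and 10.89 and 10.84 (knockout) under LPS, against 11.53 and 11.78 (WT) and 11.47 and 11.41 (knockout) with IL-10 added. Its groups did not overlap within either genotype, and the averaged difference was 0.60 (limma, adjusted p = 0.0712). The remaining 3 genes of this class had differences near 0. *Srebf1* read 8.34 and 8.57 in WT against 8.70 and 8.74 in the knockout under LPS alone, and 8.62 and 8.80 against 8.69 and 8.70 under LPS + IL-10 (0.12, limma, adjusted p = 0.552).

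*Scap* and *Insig2*, the escort and the other retention factor, held the only 2 negative averaged differences of the 31 genes. *Scap* read 7.61 and 7.92 in the WT donors under LPS and 7.55 and 7.65 with IL-10 added, and 7.50 and 7.75, then 7.54 and 7.56, in the knockout donors, a difference of -0.12 (limma, adjusted p = 0.605). *Insig2* read 8.63 and 8.74 (WT) and 8.79 and 8.65 (knockout) under LPS, against 8.69 and 8.48 (WT) and 8.63 and 8.72 (knockout) with IL-10 added, a difference of -0.07 (adjusted p = 0.752). Neither gene's donors all moved one way.

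None of the 3 enzymes that make palmitate from citrate carbon was called (limma, 2 of 3 at an unadjusted p under 0.05). *Fasn*, the fatty acid synthase, read 6.05 and 5.29 in WT against 5.43 and 5.24 in the knockout under LPS alone, and 6.53 and 5.67 against 6.47 and 6.23 under LPS + IL-10, with a difference of 0.72 (adjusted p = 0.117). *Acaca*, the carboxylase that makes malonyl-CoA, read 7.26 and 7.34 in the WT donors under LPS and 7.51 and 7.61 with IL-10 added, and 7.27 and 7.13, then 7.41 and 7.37, in the knockout donors, with a difference of 0.22 (adjusted p = 0.216). *Fasn* overlapped between the WT groups and *Acaca* in neither genotype. *Acly*, which supplies cytosolic acetyl-CoA, lay between 11.71 and 12.04 on all arrays, with a difference of 0.16.

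Of the 5 desaturation and elongation genes 2 were called. *Elovl6*, which lengthens palmitate to stearate, read 6.05 and 5.15 (WT) and 3.83 and 3.91 (knockout) under LPS, against 6.49 and 5.76 (WT) and 5.92 and 5.59 (knockout) with IL-10 added. The 2 knockout LPS arrays stood more than 1 log2 unit below every other array, and the WT groups overlapped. The averaged difference was 1.20 (SE 0.20, limma, adjusted p = 0.0282), and leaving out any of 7 arrays ended the call (up to 0.122, without *miR-155*-/-(LPS) replicate 1). The other 2 *Elovl6* probe sets were dim, with means of 3.55 and 2.04, and read 0.08 and -0.11, and with the mean over the gene's probe sets the difference was 0.39 and the call ended (adjusted p = 0.0943).

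*Fads1*, a desaturase on the route to arachidonate, read 8.77 and 8.61 in WT against 8.16 and 8.10 in the knockout under LPS alone, and 8.88 and 8.82 against 8.77 and 8.81 under LPS + IL-10. All 4 LPS + IL-10 arrays lay within 0.11 of each other. The averaged difference was 0.41 (SE 0.08, limma, adjusted p = 0.0448), and leaving out any 1 of the 8 arrays ended the call (up to 0.200, without WT(LPS) replicate 2), as did the donor as a fixed block (0.0896). *Scd2*, a stearoyl-CoA desaturase, read 10.84 and 9.94 in the WT donors under LPS and 11.17 and 10.14 with IL-10 added, and 10.11 and 9.58, then 11.24 and 10.76, in the knockout donors, with a difference of 0.71 (adjusted p = 0.208). The WT groups of *Scd2* overlapped and the knockout groups did not.

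*Scd1*, the other stearoyl-CoA desaturase, and *Fads2*, the desaturase before *Fads1*, differed widely between donors. *Scd1* read 9.43 and 5.25 (WT) and 5.46 and 5.46 (knockout) under LPS, against 9.44 and 6.34 (WT) and 7.23 and 5.22 (knockout) with IL-10 added. WT donor 1, whose stromal markers were high, held *Scd1* at 9.43 and 9.44 where no other array went above 7.23, and the part of those cells in it was not tested. The *Scd1* step was 1.09 in WT donor 2 and 1.77 in *miR-155*-/- donor 1, against 0.01 and -0.23 in the other donors. *Fads2* read 5.14 and 4.08 in WT against 4.47 and 4.99 in the knockout under LPS alone, and 5.25 and 3.77 against 6.31 and 4.77 under LPS + IL-10. Its step was 1.84 in *miR-155*-/- donor 1 and between -0.31 and 0.10 in the other donors. A *Fads2* probe set nearly as bright (mean 4.49 against 4.85) went up in both knockout donors, from 3.91 to 6.61 and from 3.23 to 5.16, a difference of 2.31 (limma, adjusted p = 0.0639), and from 4.73 to 4.86 and 3.39 to 4.0 in WT. Neither gene passed in any of the 6 comparisons on its brightest probe set.

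**Figure D2:**
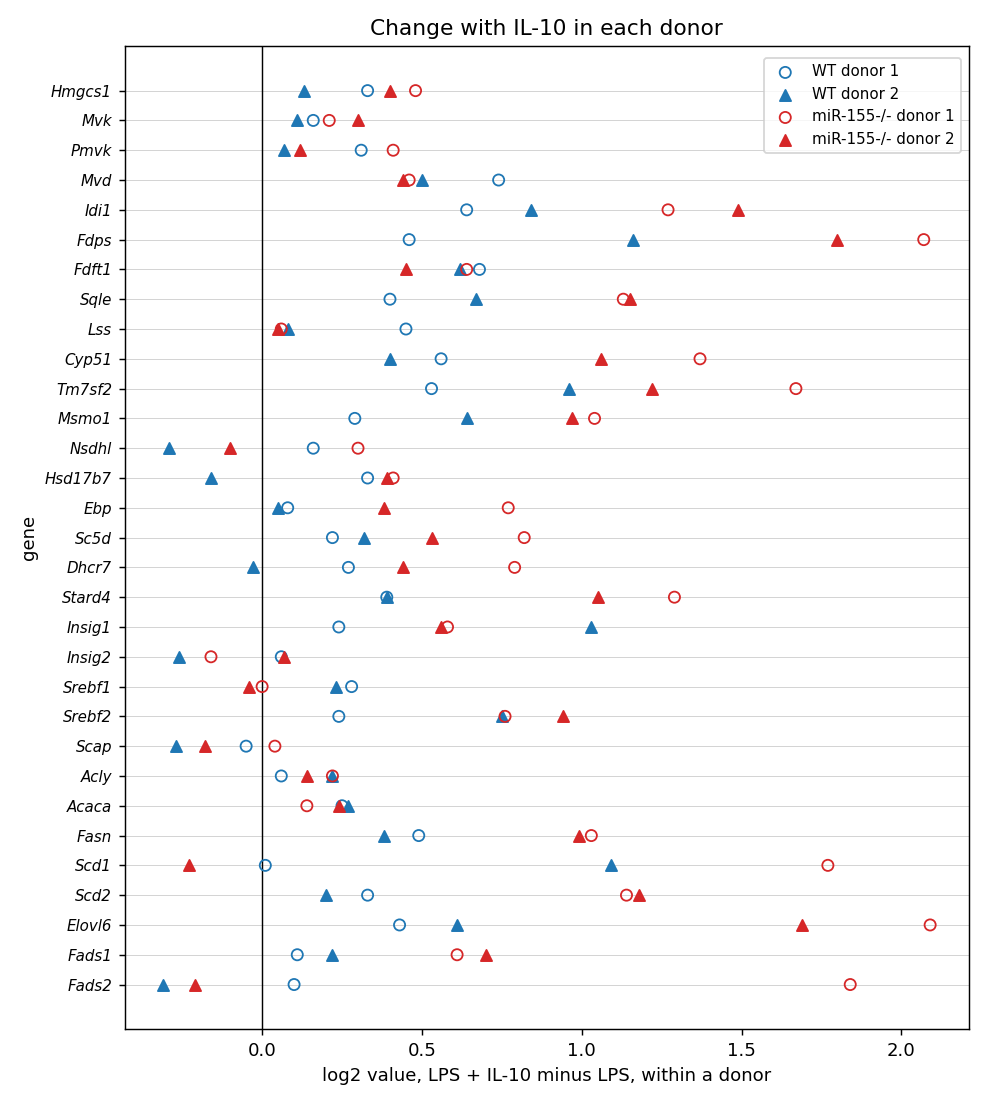
Log2 value on the LPS + IL-10 array minus that on the LPS array of the same donor (horizontal axis), with 1 row for each of 31 genes and 1 point for each of 4 donors. Most points lie right of 0, and for *Elovl6*, *Fdps*, *Stard4* and *Scd2* both knockout donors (red) lie right of both WT donors (blue).

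Within the knockout alone, 6 genes rose with IL-10 and none fell: *Sqle*, *Tm7sf2*, *Stard4*, *Srebf2*, *Elovl6* and *Fads1* (1.26% of all probe sets were called higher). At an unadjusted p under 0.05, 18 of the 31 were higher (8.87% of all probe sets). The median of the 31 was 0.61, with 28 positive. Without both arrays of WT donor 1 the median was again 0.61. In 23 of the 31 genes both *miR-155*-/-(LPS + IL-10) arrays lay above both *miR-155*-/-(LPS) arrays (24.5% of all probe sets, and 33.7% of those averaging at least 6).

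The knockout differences were 1.89 for *Elovl6* (limma, adjusted p = 0.0202), 1.45 for *Tm7sf2* (2.73-fold, 0.00996), 1.17 for *Stard4* (2.25-fold, 0.00663), 1.14 for *Sqle* (2.21-fold, 0.0301), 0.85 for *Srebf2* (1.81-fold, 0.0428) and 0.66 for *Fads1* (1.58-fold, 0.0307). No fold is given for *Elovl6* because its *miR-155*-/-(LPS) values, 3.83 and 3.91, lie within the range of the adipocyte markers and were not shown to be above background, and with the mean over its probe sets the difference was 0.71 (adjusted p = 0.0421). With each mouse's 2 arrays paired, the donor being a fixed block, the calls of *Srebf2* (adjusted p = 0.0523) and *Fads1* (0.0582) ended. *Fdps* had the largest difference, 1.93, and missed the threshold (adjusted p = 0.0531), as did *Idi1* at 1.38 (0.0686) and *Msmo1* at 1.01 (0.0621). The *Elovl6* call ended without any of 4 arrays (up to 0.166, without *miR-155*-/-(LPS) replicate 1), *Tm7sf2* without any of 3 (0.108, the same array) and *Stard4* without either of 2 (0.0832, the same array). *Sqle* and *Srebf2* ended without any of 6 arrays (up to 0.185 and 0.219, without *miR-155*-/-(LPS + IL-10) replicate 1), and *Fads1* without any of the 8 (0.177, without *miR-155*-/-(LPS + IL-10) replicate 2).

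Within WT, none of the 31 genes was called (limma, 0.0311% of all probe sets were, in either direction), and 9 were higher at an unadjusted p under 0.05 (4.69% of all probe sets). The 9 were *Mvd*, *Idi1*, *Fdft1*, *Sqle*, *Tm7sf2*, *Stard4*, *Insig1*, *Srebf2* and *Acaca*. The median of the 31 was 0.27, with 27 positive, and the largest value was 0.81 for *Fdps*, followed by 0.75 for *Tm7sf2* (adjusted p = 0.256) and 0.74 for *Idi1*. In 14 of the 31 genes both WT(LPS + IL-10) arrays lay above both WT(LPS) arrays (16.1% of all probe sets).

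Whether the step differed between genotypes was tested by the interaction term. No gene was called (limma, 0.0333% of all probe sets were), and 5 of the 31 were larger in the knockout at an unadjusted p under 0.05 (5.43% of all probe sets). These were *Stard4*, by 0.78 (95% interval 0.37 to 1.19, limma, adjusted p = 0.292), *Elovl6*, by 1.37 (0.44 to 2.29, adjusted p = 0.366), *Tm7sf2*, by 0.70 (0.13 to 1.27, adjusted p = 0.425), *Fads1*, by 0.50 (0.13 to 0.86, adjusted p = 0.397), and *Ebp*, by 0.51 (0.04 to 0.97, adjusted p = 0.456). In 18 of the 31 genes both knockout steps were larger than both WT steps (22.1% of all probe sets), and in 4 both WT steps were the larger (21.1%). Among brighter genes these counts were 16 and 4 of 28, against 31.5% and 23.8% of all probe sets that bright. The 6 negative interaction values were -0.28 for *Srebf1*, -0.22 for *Lss*, -0.17 for *Mvd*, -0.10 for *Fdft1*, -0.07 for *Acaca* and -0.06 for *Insig1*, and none of these passed. On another probe set the interaction was 0.63 for *Mvd*, 0.62 for *Lss* and 0.39 for *Fdft1*, so its sign depended on the probe set there. Without both arrays of WT donor 1 the median interaction was 0.37, against 0.36 with them, and again no gene was called.

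The second question is whether the genotypes differed under LPS alone. *Stard4* was lower in *miR-155*-/-(LPS) and no other of the 31 genes was called (0.513% of all probe sets were called lower). Its difference was -0.99 (SE 0.14, limma, adjusted p = 0.0268), or 0.503 times the WT level, and no knockout array reached a WT array. The call ended without any of 6 arrays (up to 0.192, without *miR-155*-/-(LPS) replicate 1). Without both arrays of WT donor 1 the difference was -0.91 (adjusted p = 0.122).

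At an unadjusted p under 0.05, 10 of the 31 genes were lower in *miR-155*-/-(LPS) and none higher (5.99% of all probe sets were lower). Besides *Stard4* these were *Elovl6* at -1.73 (limma, adjusted p = 0.0557), *Fdps* at -1.16 (0.312), *Idi1* at -0.98 (0.270), *Tm7sf2* at -0.92 (0.0829), *Sqle* at -0.90 (0.117), *Msmo1* at -0.72 (0.249), *Fads1* at -0.56 (0.0974), *Srebf2* at -0.46 (0.326) and *Ebp* at -0.39 (0.349). *Scd1* had the largest difference, -1.88 (95% interval -5.12 to 1.36), which rests on the level of WT donor 1. *Cyp51* had -0.81 (adjusted p = 0.366). The 3 highest values were 0.26 for *Srebf1*, 0.22 for *Lss* and 0.14 for *Mvk*, and none of these passed.

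The median of the 31 genes was -0.27, with 26 negative, against 0.02 over all probe sets. Both knockout arrays lay below both WT arrays in 17 genes (21.3% of all probe sets, and 16 of the 28 brighter genes against 31.2%), and above both in 2 genes (25.3%). WT donor 1 held the highest LPS array of 24 of the 31 genes (23.1% of all probe sets) and the highest LPS + IL-10 array of 15 (18.5%), beside its high stromal markers, whose part in the difference was not tested. Against WT donor 2 alone, both knockout arrays were lower in 20 genes (37.2% of all probe sets). Without both arrays of WT donor 1 the median was -0.14, none of the 31 was called and 5 had an unadjusted p under 0.05. For *Stard4*, *Elovl6*, *Tm7sf2*, *Sqle* and *Fads1*, the LPS array of WT donor 2 lay 0.45 or more above the higher knockout array.

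**Figure D3:**
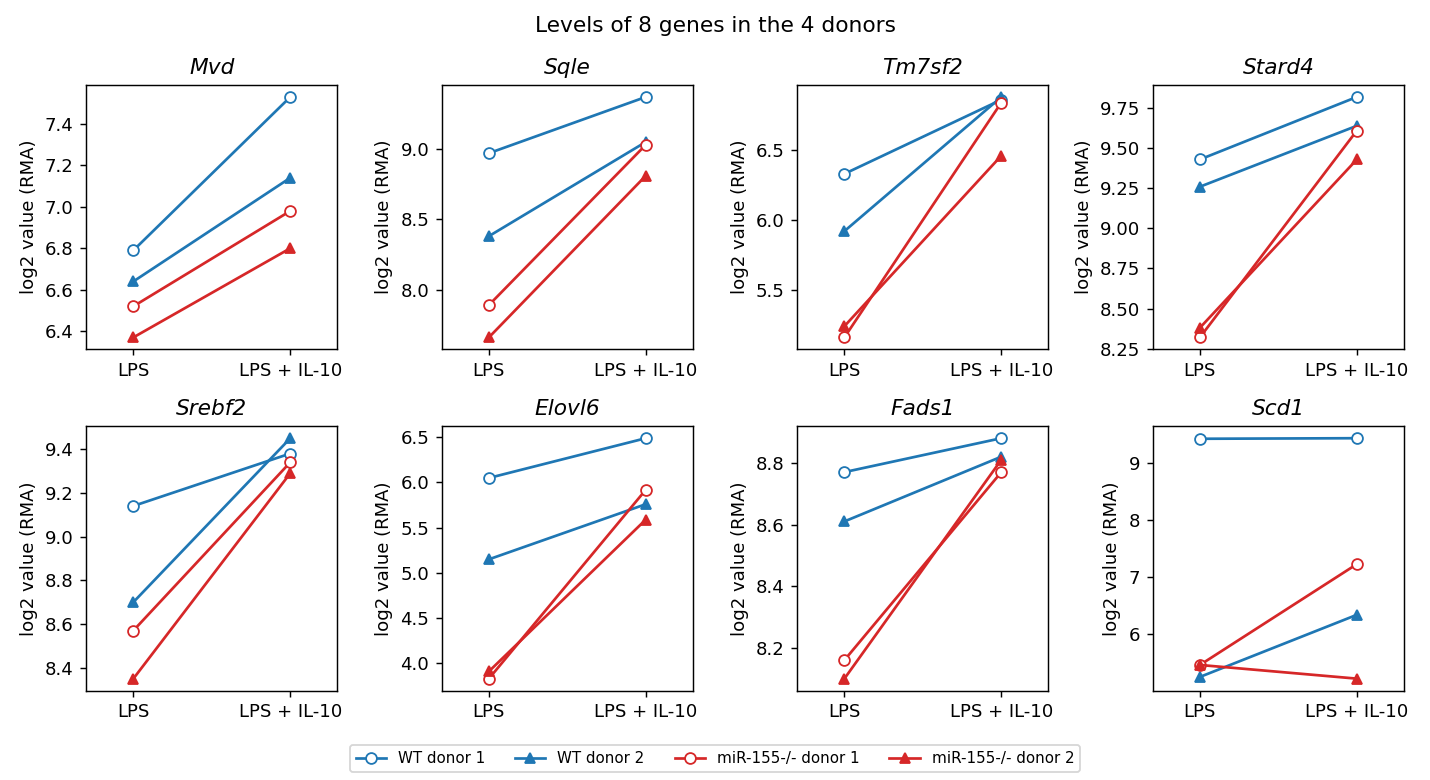
Log2 value (vertical axis, its own range in each panel) of 8 genes under LPS and under LPS + IL-10, with 1 line for each of 4 donors. In *Sqle*, *Tm7sf2*, *Stard4*, *Elovl6* and *Fads1* the knockout donors start below the WT donors, and *Scd1* in WT donor 1 stays near 9.4.

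Under LPS + IL-10 the differences between genotypes were nearer 0. None of the 31 genes was called (limma, 0.0711% of all probe sets were), and 1, *Mvd*, was lower in the knockout at an unadjusted p under 0.05 (-0.44, 95% interval -0.84 to -0.05, adjusted p = 0.508; 3.35% of all probe sets were lower). The median of the 31 was -0.06, with 12 positive and 19 negative, and both knockout arrays lay below both WT arrays in 9 genes (15.7% of all probe sets). Without both arrays of WT donor 1 the median was 0.08 and again none was called. *Stard4* differed by -0.21 (-0.54 to 0.12), *Tm7sf2* by -0.22 (-0.68 to 0.24), *Elovl6* by -0.37 (-1.12 to 0.38), *Sqle* by -0.29 (-0.80 to 0.22) and *Fads1* by -0.06 (-0.36 to 0.24). The intervals reach as low as -0.36 for *Fads1* and -1.12 for *Elovl6*, so such differences were not shown to be absent. The knockout LPS arrays enter the IL-10 step in the knockout, the averaged IL-10 difference, the genotype difference under LPS and the interaction. These comparisons are therefore not independent of each other.

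**Figure D4:**
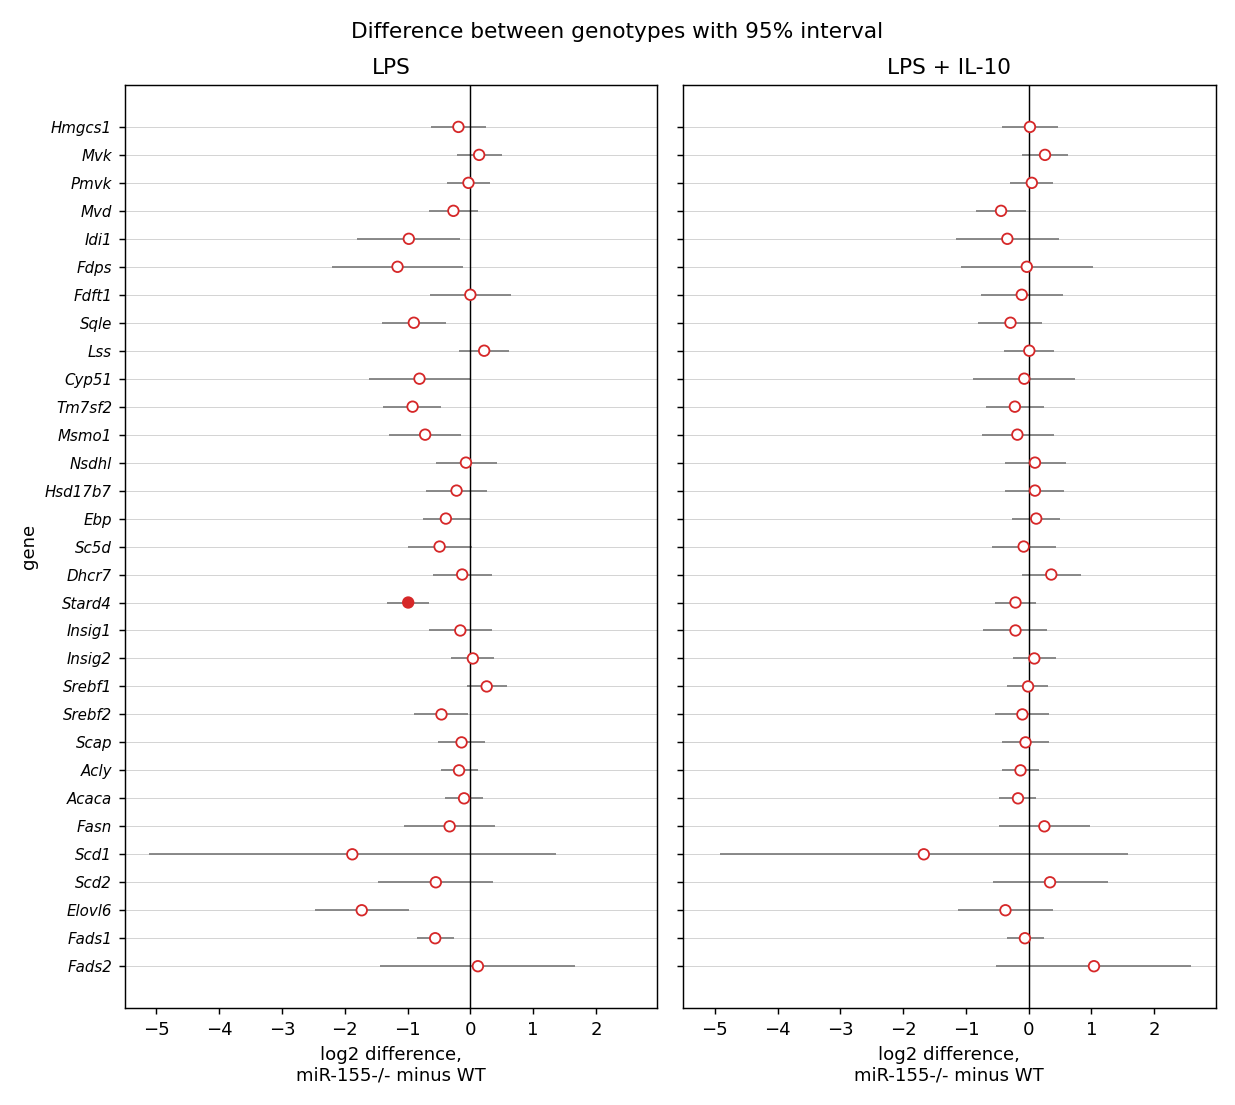
Fitted log2 difference, *miR-155*-/- minus WT (horizontal axis), of 31 genes under LPS (left) and under LPS + IL-10 (right), with 95% intervals from limma and filled points for adjusted p under 0.05. *Stard4* under LPS is the filled point at -0.99, and the points of the right panel lie between -0.44 and 0.36, except *Scd1* and *Fads2*.

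The remaining probe sets of the same genes gave a second reading. Of 41 further probe sets, 23 averaged at least 5, and of these 22 had the sign of the brightest probe set in the averaged IL-10 comparison and 22 in the knockout, 19 in WT, 18 for the genotype difference under LPS, 18 for the interaction and 15 for the genotype difference under LPS + IL-10. A dimmer *Mvd* probe set passed in the knockout (1.14, limma, adjusted p = 0.0428) and in the average (0.83; 0.0393). A dimmer *Lss* probe set passed in the knockout at 0.74 (adjusted p = 0.0470), where the brightest read 0.05 (0.913), so the probe sets of *Lss* do not tell the same story. A dimmer *Fads1* probe set was lower in *miR-155*-/-(LPS), at -1.15 (0.0498). The 2 dimmer *Stard4* probe sets had genotype differences under LPS of -0.83 and -1.13 and did not pass (0.239 and 0.222), and the dimmer *Srebf2* probe set had an averaged IL-10 difference of 0.46 (0.207).

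A further 32 genes of the same and adjoining pathways, 29 of them with a probe set of their own, were divided in direction. In the averaged IL-10 comparison 1 rose, 2 fell and 26 did not pass, with a median of 0.01 and 15 positive. Of all probe sets, 1.16% were called higher in this comparison and 2.59% in either direction. All 4 donors stepped up in 6 of the 29 genes and down in 7. Of all probe sets, 10.6% stepped up in all 4 donors. Among those averaging at least 6, 14.7% stepped up and 17.9% down in all 4. *Mid1ip1*, whose product activates acetyl-CoA carboxylase, read 10.08 and 9.79 in the WT donors under LPS and 10.34 and 10.05 with IL-10 added, and 9.23 and 9.08, then 10.30 and 10.00, in the knockout donors. Its averaged difference was 0.63 (limma, adjusted p = 0.0324), and in the knockout alone 1.00 (0.0223).

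The 2 genes that fell supply or sense the pathway. *Me1*, malic enzyme, which makes NADPH for lipid synthesis, read 8.43 and 9.01 (WT) and 9.47 and 9.23 (knockout) under LPS, against 7.87 and 7.96 (WT) and 8.02 and 8.16 (knockout) with IL-10 added, a difference of -1.03 (limma, adjusted p = 0.0116). *Nr1h3*, the oxysterol receptor LXR-alpha, read 7.77 and 8.12 in WT against 9.0 and 8.84 in the knockout under LPS alone, and 6.74 and 7.48 against 7.98 and 7.30 under LPS + IL-10, a difference of -1.06 (0.0335). Both genes were higher under LPS than under LPS + IL-10 in all 4 donors.

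*Acss2*, which makes acetyl-CoA from acetate and is an SREBP target in other cells, went the other way from the 31 genes. It read 6.30 and 6.75 in the WT donors under LPS and 6.22 and 5.71 with IL-10 added, and 8.48 and 7.52, then 6.58 and 6.03, in the knockout donors. In the knockout it fell by 1.70 (limma, adjusted p = 0.0432), and its genotype difference under LPS was 1.48 (0.123). *Ch25h* makes 25-hydroxycholesterol, an oxysterol that restrains SREBP processing. It read 9.94 and 9.03 (WT) and 10.89 and 10.90 (knockout) under LPS, against 10.85 and 10.19 (WT) and 10.86 and 11.21 (knockout) with IL-10 added. The WT(LPS) arrays were the lowest of the 8, and its genotype difference under LPS was 1.41 (limma, adjusted p = 0.0922), with an IL-10 difference of 1.03 in WT (0.318) and 0.14 in the knockout (0.858).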

How the data were processed

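The authors amplified RNA with the NuGEN Ovation system, hybridised it to Affymetrix mouse genome arrays and deposited log2 values after RMA (tools named in the submitters' notes: affy, RMA and limma, versions not given in the sources used here). These deposited log2 values were used as they stand, and 0 array columns belonged to no sample. Of 45101 probe sets, 64 controls and 23 sex-linked ones were left out and 45014 tested. Limma 3.58.1 in R 4.3.3 fitted 4 group means to 8 arrays, each donor forming a random block (correlation 0.24), and Benjamini-Hochberg adjustment. The 2 arrays of a replicate number within a genotype come from the same mouse, and their deviations correlated at 0.754 in WT and 0.23 in the knockout. The annotation gave 34958 probe sets 1 symbol, 932 several and 9211 none. The fit was tested on simulated data. The members, their roles and the other lists were chosen with earlier results of these data known, so they are no independent evidence. Array values are given for genes called in any of the 6 comparisons, those with an unadjusted p under 0.05 in the averaged IL-10 or the LPS genotype comparison, and the 3 largest and 3 smallest differences there. Of the other pathway genes, those called and *Ch25h* are named. Promoters and miRNA sequences are RefSeq's (GRCm38.p6). Alternatives are in the closing section. Figures used Python 3.11.15 and matplotlib 3.10.9.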

Additional observations from a re-analysis of the deposited data

Results flagged for a closer look

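The IL-10 step of *Srebf1* was positive in both WT donors and slightly below 0 in both *miR-155*-/- donors. It was 0.28 and 0.23 in the WT donors, and in the *miR-155*-/- donors the value went from 8.70 to 8.69 and from 8.74 to 8.70, so the knockout donors barely moved. The difference between genotypes was -0.28 (95% interval -0.67 to 0.12; limma, adjusted p = 0.602), so it did not pass the test of the difference itself.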

How the results depend on the processing

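For the 14 calls of single genes, 270 refits under alternatives gave 175 calls kept, 95 lost and 0 reversed in direction. The counts of called genes moved more than the medians. Brackets give the share of all probe sets called in either direction. In the knockout, 6 genes were higher in the fit reported (2.68%). The count was 2 with no replicate block (1.09%) and 10 with the donor as a fixed block (3.49%). With only the arrays compared it was 12 (3.67%). It was 15 of 28 with probe sets averaging at least 6 (20.6% of those) and 11 with an intensity trend (5.38%). With array weights it was 12 (5.35%), and with the mean over a gene's probe sets also 12 (5.71%). Averaged over genotypes, the 7 of the fit reported (2.59%) became 2 with no replicate block (1.24%). With the donor as a fixed block they became 13 (3.19%). They became 17 with the brighter probe sets (17.9%) and 11 with the mean over probe sets (5.02%). With 1 array left out, calls ended as given for each gene above. In WT the 0 became 1 of 28 with the brighter probe sets (2.12% of all called). The 1 lower gene in *miR-155*-/-(LPS) (1.46% in the fit reported) became 2 with the replicate number as a fixed block (1.09%). With only the arrays compared it became 0 (0.171%). It became 4 of 28 with the brighter probe sets (9.87% of those) and 5 with an intensity trend (3.49%). With array weights the count was 2 (1.95%), as with centred arrays (1.37%) and with the mean over probe sets (2.77%). The *Stard4* call also ended without WT donor 1 and without some single arrays, as given above. The cause of these moves was not tested. Some alternatives also removed arrays or probe sets, so fewer entered those fits. With 1 array left out the medians ran from 0.15 to 0.46 in WT, from 0.42 to 0.72 in the knockout, from -0.45 to -0.21 for the genotype difference under LPS and from 0.21 to 0.57 for the interaction, each keeping its sign, but from -0.14 to 0.06 for the genotype difference under LPS + IL-10. Pairing by donor or by replicate number ended the calls of *Srebf2* and *Fads1* in the knockout and of *Fads1* on average, and the replicate number alone also those of *Mvd* (adjusted p = 0.073) and *Srebf2* (0.0678) on average.

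With 2 arrays a group, the size of a difference did not decide alone whether it passed (0.41 for *Fads1* did and 1.37 for *Fdps* did not). Genotype and sex cannot be told apart, WT donor 1 had the highest stromal marker medians, and there is no unstimulated group. Where 1 array of a group was left out, the lone array was assumed to vary like the other groups, and without WT donor 1 the donor correlation of all 8 arrays was used.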
